A study of Mus musculus with 12 samples.

Results

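Glucocorticoid signalling was followed in the mouse nucleus accumbens through 10 genes: the glucocorticoid receptor gene Nr3c1, the mineralocorticoid receptor gene Nr3c2, and 8 genes that glucocorticoids are known to induce (Fkbp5, Sgk1, Tsc22d3, Plin4, Errfi1, Map3k6, Zbtb16 and Cdkn1a). They were taken as every probe that the array's annotation assigns to these symbols, which gave 16 of the 45281 probes. All 10 genes were among the 12732 genes with a probe that passed the detection filter. The arrays carried RNA from C57BL/6J mice aged 8 to 10 weeks, in 4 groups of 3 arrays. Mice received 15 daily intraperitoneal injections and were killed 1 h after the last. In the acute group 14 saline injections were followed by a single one of cocaine-HCl at 20 mg/kg. In the repeated group 7 saline injections were followed by 8 of cocaine at that dose. The withdrawal group had 7 of cocaine, 7 of saline and a challenge with cocaine at the end, so its name covers 7 days of saline followed by cocaine. The saline group had 15 of saline, so it too was injected 1 h before the tissue was taken. Each array held bilateral punches pooled from 4 mice, so the spread between arrays is a spread between pools, and fewer cells of a type and less RNA per cell cannot be told apart.

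Glucocorticoids, in mice mainly corticosterone, are released by the adrenal gland under stress and in a daily rhythm. They bind the glucocorticoid receptor and, with higher affinity, the mineralocorticoid receptor. Without hormone the receptors are held in the cytoplasm by HSP90 and its co-chaperones. With hormone they enter the nucleus and bind DNA elements that are imperfect palindromes of AGAACA. Cocaine and the stress of an injection are both known to raise corticosterone, and the ventral striatum expresses the glucocorticoid receptor. Several of these targets also answer to other signals, Cdkn1a to p53 and Errfi1 to growth factors.

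The gene that differed most between the cocaine groups was Plin4, which codes for a perilipin, a coat protein of lipid droplets. It was 1.77-fold higher in repeated than in saline pools and 1.92-fold lower in withdrawal than in repeated pools. Tsc22d3 (GILZ), an anti-inflammatory leucine zipper protein, was lower in withdrawal than in repeated and in acute pools by its second probe. Fkbp5 had nearly the same level in all 4 groups. In none of the 6 comparisons between groups did a probe of the 10 genes pass limma's test once p-values were adjusted (Benjamini-Hochberg) over the 25478 kept probes. The differences named here rest on the criteria stated by the series, a 1.3-fold change and an unadjusted p below 0.05, here limma's two-sided p.

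The detection filter, 3 or more of the 12 arrays, kept 15 of the 16 probes, and 12 of them were seen on every array. Values below are background-subtracted intensities in array order 1, 2 and 3 unless called log2, and errors of differences are limma standard errors with n = 3 arrays per group. Where a gene has several probes they are numbered by brightness, the first being the brightest, and levels are not compared between probes or genes.

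**Figure D1:**
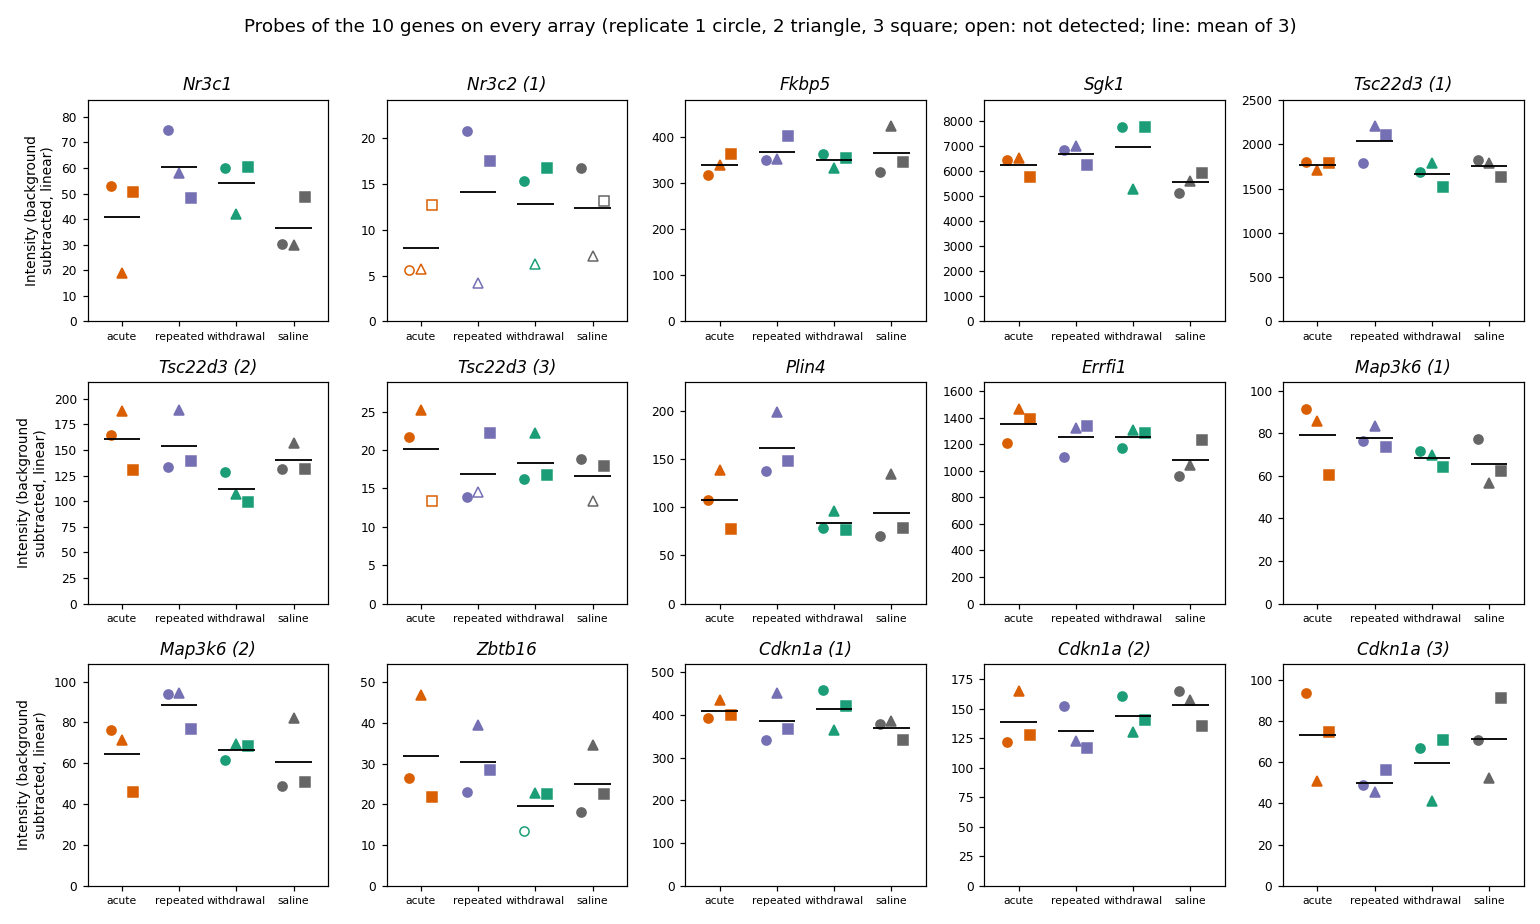
Background-subtracted intensity on a linear axis of the 15 kept probes of the 10 genes, by group, with 1 point per array (replicate 1 circle, 2 triangle, 3 square), open points where the probe was not detected, and a line at the mean of 3 arrays. The 3 repeated arrays lie above the 3 withdrawal and the 3 saline arrays for Plin4, while the groups overlap for Fkbp5.

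The receptors were dim. The single Nr3c1 probe was detected on all arrays and read 53.1, 18.8 and 50.6 in acute, 74.7, 58.1 and 48.3 in repeated, 60.2, 42.0 and 60.4 in withdrawal, and 30.4, 30.0 and 48.8 in saline pools. Acute pool 2 was the lowest of the 12 arrays, and every cocaine group overlapped with saline. The log2 differences from saline were 0.06 ± 0.38 in acute (95% interval −0.78 to 0.91), 0.75 ± 0.38 in repeated (−0.10 to 1.59, unadjusted p = 0.078, limma adjusted p = 0.59) and 0.59 ± 0.38 in withdrawal (−0.25 to 1.44). With the replicate number as a block, the repeated difference of 0.75 ± 0.31 met the series criteria (unadjusted p = 0.0443, limma adjusted p = 0.424). It also met them without saline replicate 3 (0.98, unadjusted p = 0.0428) and without acute replicate 2 (0.75, unadjusted p = 0.0116). With that acute pool left out so did the withdrawal difference (0.59, unadjusted p = 0.0334). The acute pool is in neither comparison, so leaving it out changed only the estimate of spread and not these differences. The repeated difference met the criteria in 4 of 24 alternatives and missed them in 20, with values of 0.32 to 0.98. The withdrawal difference met them in 1 of 24. Repeated against acute met them in 1 of 24, without acute replicate 1 (0.95, unadjusted p = 0.0432).

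Nr3c2 was at the edge of detection. Its first probe was detected on 0 of 3 acute, 2 of 3 repeated, 2 of 3 withdrawal and 1 of 3 saline arrays, with intensities of 5.6 to 12.7, 4.2 to 20.8, 6.3 to 16.8 and 7.1 to 16.8 in that order. Its second probe was detected on 0 of 12 arrays, with values from −7.9 to 3.0. The mean log2 intensity of the first probe was 3.94 in repeated and 3.44 in acute pools, where it was not detected. Acute pools 1 and 2 and repeated pool 2 lay at the floor of 10, as did withdrawal pool 2 and saline pool 2, so no fold is given. The fitted difference was 0.50 ± 0.30 (95% interval −0.16 to 1.17, limma adjusted p = 0.879). It met the series criteria with the replicate block (unadjusted p = 0.0247, limma adjusted p = 0.646) and without repeated replicate 2 (0.82, unadjusted p = 0.0134). All arrays numbered 2 lay at the floor, which enters the block result. With acute values raised to the lowest value of any probe detected on their array, the difference was 0.07. The fitted differences of Nr3c2 from saline were 0.24 ± 0.30 in repeated and 0.07 ± 0.30 in withdrawal pools, neither of which met the criteria.

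Fkbp5 codes for an HSP90 co-chaperone that lowers the receptor's affinity for hormone and is itself induced by the receptor, closing a feedback loop. Its probe read 317.1, 339.1 and 363.0 in acute, 350.6, 352.5 and 403.1 in repeated, 363.6, 334.1 and 354.2 in withdrawal, and 323.8, 424.7 and 346.8 in saline pools. The highest and the second lowest of the 12 values were both saline pools, and all groups overlapped. The log2 differences from saline were −0.10 ± 0.12 in acute (95% interval −0.36 to 0.16), 0.02 ± 0.12 in repeated (−0.24 to 0.28) and −0.05 ± 0.12 in withdrawal pools (−0.31 to 0.21). These intervals are among the narrower ones of the set, and differences of the size they span remain possible.

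Sgk1 codes for serum and glucocorticoid regulated kinase, which acts on ion channels and transporters and is abundant in oligodendrocytes. Its probe read 6446.9, 6493.1 and 5752.5 in acute, 6840.0, 6975.7 and 6230.1 in repeated, 7757.7, 5274.3 and 7757.7 in withdrawal, and 5125.1, 5576.5 and 5917.0 in saline pools. All 3 repeated pools lay above all saline pools, acute pool 3 and withdrawal pool 2 lay within the saline range, and withdrawal pools 1 and 3 were the highest of the 12. The log2 differences from saline were 0.17 ± 0.15 in acute, 0.27 ± 0.15 in repeated (unadjusted p = 0.0971, limma adjusted p = 0.619) and 0.30 ± 0.15 in withdrawal (95% interval −0.03 to 0.63, unadjusted p = 0.0682, limma adjusted p = 0.647). None met the series criteria, but without withdrawal replicate 2 the withdrawal difference was 0.49 (unadjusted p = 0.00139) and met them. The oligodendrocyte markers, 6 measured of 8 and all 6 detected on every array, had summed intensities of 48998.0 to 52553.5 in acute, 49313.5 to 53713.0 in repeated, 50807.4 to 53512.7 in withdrawal and 48946.7 to 52422.9 in saline pools, so the groups overlapped.

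RefSeq transcript starts gave 17 windows of 250 upstream bases for 8 of the 10 genes. They were searched on both strands for the full receptor palindrome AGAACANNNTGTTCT, for its shorter forms GAACANNNTGT or ACANNNTGTTC, and for a single arm, AGAACA or TGTTCT. A full palindrome contains the shorter forms and both arms. The full palindrome occurred in 3 of 32851 windows of all genes (0.00913%), and 1 of the 17 windows here held it, in Sgk1. That window, chr10:21993640-21993889 on the plus strand of GRCm38.p6, is 1 of 6 for Sgk1 and is printed because it carries the palindrome. Capitals mark the palindrome, its first base 189 bases upstream of the transcript start:
Sgk1: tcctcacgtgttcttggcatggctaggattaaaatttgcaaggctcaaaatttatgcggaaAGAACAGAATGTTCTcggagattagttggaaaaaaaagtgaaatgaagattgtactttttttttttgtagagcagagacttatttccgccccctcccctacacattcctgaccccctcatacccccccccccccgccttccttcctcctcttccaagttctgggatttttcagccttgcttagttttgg
The match is a description of these letters and says nothing of binding in these mice.

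Tsc22d3 was measured by 3 probes assigned to different transcript records. The first probe read 1797.2, 1715.5 and 1794.6 in acute, 1793.3, 2203.7 and 2111.4 in repeated, 1686.1, 1795.0 and 1522.0 in withdrawal, and 1820.0, 1794.6 and 1636.3 in saline pools. Repeated pools 2 and 3 stood above all others, while repeated pool 1 lay among the saline values. The log2 difference was −0.29 ± 0.11 in withdrawal against repeated pools (unadjusted p = 0.0212, limma adjusted p = 1), which is 1.22-fold lower and under the fold of the series criteria. It was 0.02, 0.21 and −0.07 ± 0.11 in acute, repeated and withdrawal pools against saline.

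The second Tsc22d3 probe read 164.9, 188.4 and 130.1 in acute, 133.7, 188.8 and 139.2 in repeated, 128.9, 107.1 and 99.3 in withdrawal, and 131.2, 156.4 and 131.6 in saline pools. The 3 withdrawal pools were the lowest of the 12 and overlapped with no other group. Withdrawal was lower than acute by −0.52 ± 0.18 on the log2 scale, or 1.43-fold (95% interval −0.92 to −0.12, unadjusted p = 0.0151, limma adjusted p = 0.848). It was lower than repeated by −0.45 ± 0.18, or 1.37-fold (unadjusted p = 0.0291, limma adjusted p = 1), and its difference from saline, −0.33 ± 0.18, did not meet the criteria. The withdrawal and acute difference missed the criteria without acute replicate 2 (−0.40, unadjusted p = 0.0631) or without withdrawal replicate 3 (−0.44, unadjusted p = 0.0572). The withdrawal and repeated difference missed them without repeated replicate 2 (−0.30), withdrawal replicate 2 (−0.43) or withdrawal replicate 3 (−0.37).

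The third Tsc22d3 probe was near background, detected on 9 of 12 arrays with values of 13.3 to 25.2, and gave 0.14 ± 0.26 for withdrawal against repeated pools, the other sign. Of the 3 Tsc22d3 windows 1 held an arm of the receptor motif, against 16.1% of all windows. That window, chrX:140600523-140600772 on the minus strand of GRCm38.p6, is shown because the gene's probes differed between groups, with the arm in capitals beginning 185 bases upstream:
Tsc22d3: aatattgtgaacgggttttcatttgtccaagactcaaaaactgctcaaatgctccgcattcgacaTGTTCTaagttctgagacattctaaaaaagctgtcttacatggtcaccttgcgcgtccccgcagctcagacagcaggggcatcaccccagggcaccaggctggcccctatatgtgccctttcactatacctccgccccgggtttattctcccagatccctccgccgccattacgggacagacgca

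Plin4 read 106.9, 138.6 and 77.1 in acute, 137.8, 198.8 and 148.3 in repeated, 78.8, 96.2 and 76.1 in withdrawal, and 70.2, 133.9 and 78.3 in saline pools. Every repeated pool lay above every withdrawal and saline pool, and the highest saline value, 133.9 in pool 2, lay just below the lowest repeated one. Group means were 107.5 ± 30.8 in acute, 161.6 ± 32.6 in repeated, 83.7 ± 10.9 in withdrawal and 94.2 ± 34.7 in saline pools (SD, n = 3 each). In descending order of the means, acute, saline and withdrawal are neighbours that overlapped and did not meet the criteria against each other.

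Repeated against saline gave a log2 difference of 0.82 ± 0.27 for Plin4 (95% interval 0.21 to 1.43, unadjusted p = 0.0135, limma adjusted p = 0.467). With the replicate number as a block it was 0.82 ± 0.15 (unadjusted p = 0.00058, limma adjusted p = 0.301). The difference missed the criteria without repeated replicate 2 (0.66, unadjusted p = 0.0554), without saline replicate 1 (0.64, unadjusted p = 0.0572) or with the 4 arrays numbered 1 left out (0.74, unadjusted p = 0.101). Withdrawal against repeated gave −0.94 ± 0.27 (95% interval −1.55 to −0.33, unadjusted p = 0.00647, limma adjusted p = 1), the 74th smallest p of that comparison. It met the criteria under all 24 alternative settings tried, with values of −1.04 to −0.62. Repeated against acute was 0.61 ± 0.27 (unadjusted p = 0.0504), and 0.61 ± 0.15 with the block, which met the criteria (unadjusted p = 0.00366, limma adjusted p = 0.626). Without the block it met them without acute replicate 2 (0.81), repeated replicate 1 (0.72), saline replicate 1 (0.61) or saline replicate 2 (0.61). The saline pools are not in this comparison, so leaving them out changed only the estimate of spread. Repeated against acute met the criteria in 11 of 24 alternatives, the block among them, and missed them in 13. Acute against saline was 0.21 ± 0.27 and withdrawal against saline −0.12 ± 0.27, neither of which met the criteria.

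Errfi1 (Mig6), a feedback inhibitor of the EGF receptor, read 1205.5, 1465.4 and 1387.6 in acute, 1106.7, 1323.2 and 1339.8 in repeated, 1174.4, 1305.0 and 1285.6 in withdrawal, and 959.6, 1039.9 and 1234.1 in saline pools. Saline pools 1 and 2 were the lowest of the 12, and saline pool 3 lay within the range of each cocaine group. Acute against saline was 0.33 ± 0.13, or 1.26-fold (95% interval 0.05 to 0.61, unadjusted p = 0.0257, limma adjusted p = 1), below the fold of the series criteria, which it reached without acute replicate 1 (0.41) or saline replicate 3 (0.43). Repeated and withdrawal pools differed from saline by 0.22 and 0.23 ± 0.13.

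Map3k6, a kinase of the stress-activated MAP kinase pathway, had 2 probes that differed. The first read 91.3, 85.7 and 60.2 in acute, 76.3, 83.6 and 73.7 in repeated, 71.5, 69.9 and 64.4 in withdrawal, and 77.5, 56.7 and 62.4 in saline pools, with differences from saline of 0.26, 0.26 and 0.08 ± 0.17. None met the series criteria with all arrays. The acute difference met them without acute replicate 3 (0.45, unadjusted p = 0.0101) or saline replicate 1 (0.39, unadjusted p = 0.049), and the repeated one without saline replicate 1 (0.39, unadjusted p = 0.0497) or as the mean of both probes (0.42, unadjusted p = 0.0252). The second read 76.5, 71.2 and 45.7 in acute, 94.0, 94.5 and 77.0 in repeated, 61.6, 69.3 and 68.6 in withdrawal, and 49.0, 82.0 and 50.8 in saline pools. By both probes the 3 repeated pools lay above the 3 withdrawal pools, and saline pool 2 fell within the repeated range of the second probe. Repeated against saline was 0.58 ± 0.23 by the second probe (unadjusted p = 0.0304, limma adjusted p = 0.523), and met the series criteria. It missed them without repeated replicate 1 (0.53) or 2 (0.53), or without saline replicate 1 (0.45) or 3 (0.47), and on intensities without background subtraction (0.31). Repeated against acute was 0.49 ± 0.23 by that probe, which missed the criteria without the replicate block (unadjusted p = 0.0617). It met them with the block (unadjusted p = 0.0358, limma adjusted p = 0.657) and without acute replicate 1 (0.63) or saline replicate 2 (0.49). The saline pool is not in this comparison, so leaving it out changed only the estimate of spread. This difference met the criteria in 4 of 24 alternatives and missed them in 20.

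The Map3k6 window, chr4:133240568-133240817 on the plus strand of GRCm38.p6, held a shorter form of the receptor palindrome, which 0.849% of all windows hold. It is printed with that form, which begins 179 bases upstream, in capitals:
Map3k6: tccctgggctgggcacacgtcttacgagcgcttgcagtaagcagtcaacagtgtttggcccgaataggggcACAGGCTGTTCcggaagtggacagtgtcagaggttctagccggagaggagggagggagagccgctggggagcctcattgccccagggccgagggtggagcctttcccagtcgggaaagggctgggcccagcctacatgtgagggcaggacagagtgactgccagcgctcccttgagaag
The windows of Nr3c2, Fkbp5, Plin4, Errfi1 and Cdkn1a held none of these letters, which says nothing of the receptor at these genes.

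Zbtb16 (PLZF), a zinc finger transcription factor, was dim and read 26.4, 46.9 and 21.9 in acute, 23.1, 39.5 and 28.3 in repeated, 13.5, 22.7 and 22.5 in withdrawal, and 18.0, 34.6 and 22.5 in saline pools. Withdrawal pool 1 was the only array on which it was not detected, and all withdrawal pools lay below all repeated pools. Withdrawal differed from repeated by −0.64 ± 0.35 (95% interval −1.41 to 0.14, unadjusted p = 0.099) and from saline by −0.34 ± 0.35. Neither met the criteria in the main fit. The difference from repeated met them with the replicate block (unadjusted p = 0.00931) or with number 1 against 2 and 3 as a block (unadjusted p = 0.0452). That from saline met them with neither block. The withdrawal difference from acute, −0.66 ± 0.35, met them with either block or without acute replicate 3 (−0.89, unadjusted p = 0.0428).

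Cdkn1a (p21), a cyclin-dependent kinase inhibitor, was detected on all arrays by 3 probes. The first read 393.1, 434.7 and 401.2 in acute, 341.5, 451.6 and 366.6 in repeated, 457.8, 365.9 and 420.9 in withdrawal, and 378.1, 385.7 and 341.8 in saline pools. All acute pools lay above all saline pools, by 0.15 ± 0.13 on the log2 scale (unadjusted p = 0.253). The second ranged over 122.1 to 165.2, 117.0 to 152.6, 130.6 to 161.1 and 135.7 to 165.1 in acute, repeated, withdrawal and saline pools, and the third over 51.0 to 93.5, 45.4 to 56.1, 41.0 to 70.9 and 52.4 to 91.4. The third probe gave −0.48 ± 0.28 for repeated against saline, of the opposite sign to the first probe's 0.06 ± 0.13. With the replicate block the third probe met the criteria in repeated against saline (−0.48 ± 0.16, unadjusted p = 0.016, limma adjusted p = 0.362) and against acute (−0.51 ± 0.16, unadjusted p = 0.0127, limma adjusted p = 0.633). It also met them without saline replicate 2 (−0.69) in the first of these and without acute replicate 2 (−0.74) in the second.

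**Figure D2:**
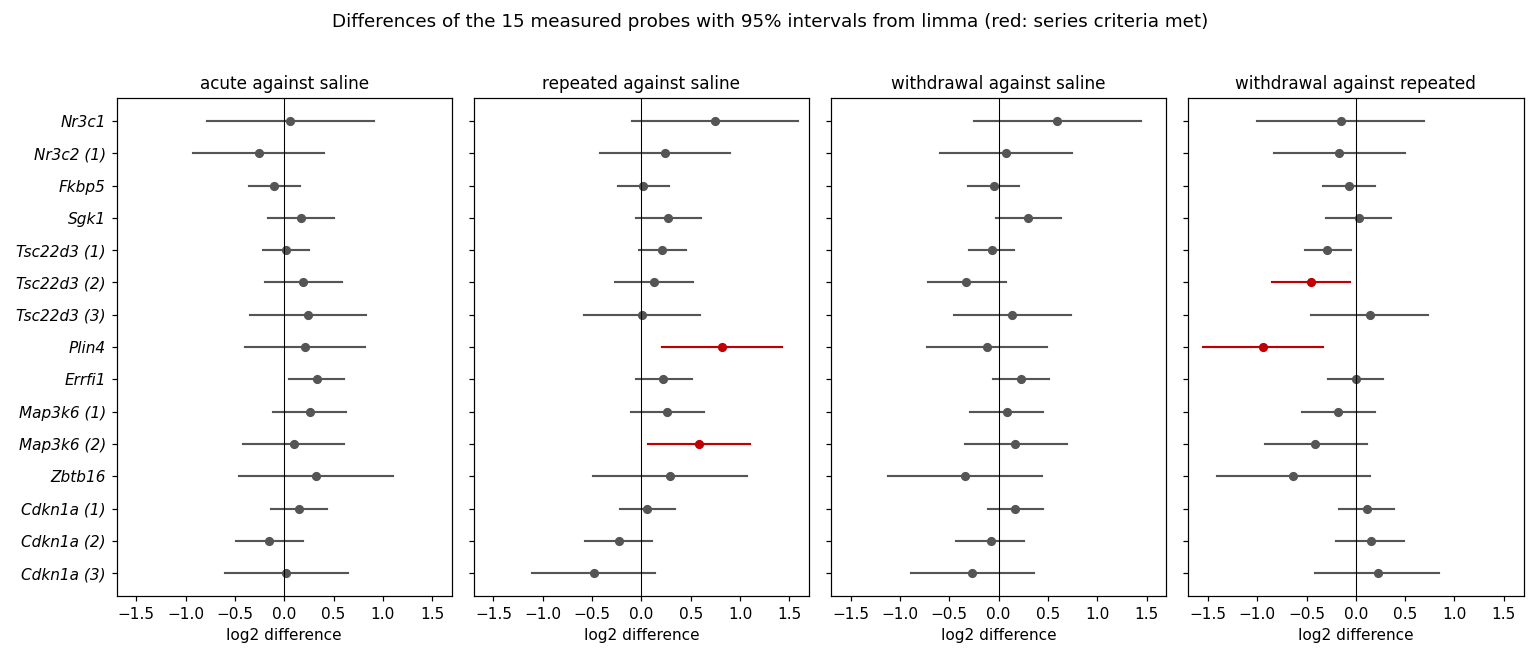
Log2 difference (points) with its 95% interval (lines) for the 15 kept probes in 4 comparisons, from limma on 12 arrays, in red where the series criteria were met. Plin4 lies at 0.82 in repeated against saline and at −0.94 in withdrawal against repeated, and the interval of Fkbp5 spans 0 in each comparison. For Nr3c2 the acute difference is a fitted value only, since no acute array detected it.

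Counted over the set, 0 of the 15 kept probes passed the adjusted threshold in any comparison. Over all kept probes limma called 0% in every comparison but repeated against acute, where 1 probe was called (0.00392%). At an unadjusted p under 0.05 the set had 1, 2 and 0 probes in acute, repeated and withdrawal against saline, beside 4.44%, 8.89% and 7.81% of all kept probes. It had 0, 1 and 3 in repeated against acute, withdrawal against acute and withdrawal against repeated, beside 5.41%, 5.65% and 2.11%. The moderated F test over the 4 groups gave Plin4 an unadjusted p = 0.0278 (limma adjusted p = 0.812), the lowest of the 15, beside 6.15% of all kept probes under 0.05 and 0% past the adjusted threshold.

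Under the series criteria the set had 0 probes in acute against saline, where 2.77% of all kept probes met them, 2 in repeated against saline (4.59%) and 0 in withdrawal against saline (3.94%). It had 0 in repeated against acute (3.18%), 1 in withdrawal against acute (3.39%) and 2 in withdrawal against repeated (1.55%). Those that met them were Plin4, the second Map3k6 probe and the second Tsc22d3 probe. With the replicate block the counts were 4 in repeated against saline and 4 in repeated against acute, beside 6.18% and 4.55% of all kept probes under that fit.

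Groups of 3 pools did not overlap for 1 probe in acute against saline (7.5% of all kept probes), 2 in repeated against saline (16.8%) and 1 in withdrawal against saline (14.5%). They did not overlap for 1 in repeated against acute (10.5%) and 1 in withdrawal against acute (9.91%). In withdrawal against repeated 5 probes did not overlap (7.5%), the second Tsc22d3 probe, Plin4, both Map3k6 probes and Zbtb16, and all 5 were lower in withdrawal, as 3.45% of all kept probes were.

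By the brightest probe of each gene, 8, 10 and 6 of the 10 genes were on the higher side in acute, repeated and withdrawal against saline, with median log2 differences of 0.16, 0.25 and 0.08, where 49.9%, 50.3% and 50.8% of all kept probes lay above 0. In repeated and withdrawal against acute 6 and 5 of 10 were on the higher side (50.6% and 51% of all kept probes), with medians of 0.11 and −0.04. In withdrawal against repeated 3 of 10 were (51.3%), with a median of −0.16. Counted by probe, 12, 13 and 8 of the 15 lay above 0 in the 3 comparisons with saline, and 7, 7 and 6 in the other 3, in the same order. Medians over the 15 probes were 0.15, 0.22, 0.07, 0.00, −0.09 and −0.15. The median over all kept probes of the array was 0.00 in each comparison. The 3 comparisons with saline share the saline pools, and those with repeated share the repeated pools, so these counts are not independent of each other.

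Arrays with the same number in the labels deviated from their group means together, and several of the 10 genes followed that number. Plin4 and Zbtb16 were highest on array 2 in 4 of 4 groups, by a mean of 0.38 and 0.46 above their group means on the log2 scale. A term for the replicate number gave unadjusted p = 0.00335 and 0.00262 for them (limma adjusted p = 0.0828 and 0.0723). Nr3c2 and the third Cdkn1a probe lay lowest on number 2, at −0.39 and −0.38 (unadjusted p = 0.00814 and 0.00406 for the term). Nr3c1 lay at −0.40 there (unadjusted p = 0.0924, limma adjusted p = 0.363). Errfi1 lay lowest on number 1, at −0.15 (unadjusted p = 0.0297, limma adjusted p = 0.222). Arrays numbered 1 were the most alike, with correlations of deviations between groups of 0.386 to 0.468. For Nr3c2 all arrays numbered 2 lay at the floor of 10, so its deviation is set in part by the floor. Over all kept probes 17.9% had an unadjusted p under 0.05 for that term and 2.75% passed after adjustment. This term was added after the values were seen.

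Markers of cortical neurons varied widely between pools and were highest on number 2 in 3 of 4 groups, the exception being acute, where pool 2 was the lowest. Neither of the 2 had an unadjusted p under 0.05 for the replicate number term. Slc17a7 and Tbr1, the 2 measured of 4 listed, had a summed intensity of 302.6 to 1453.7 on arrays numbered 2, 17.7 to 573.7 on those numbered 1 and 22.6 to 1029.9 on those numbered 3. By group the sums were 302.6 to 1029.9 in acute, 17.7 to 974.6 in repeated, 95.3 to 1382.2 in withdrawal and 22.6 to 1453.7 in saline pools, so they overlapped. In repeated, withdrawal and saline the pool with the highest sum (974.6, 1382.2 and 1453.7) also read highest for Plin4 (198.8, 96.2 and 133.9). In acute the pool with the lowest sum, 302.6, read highest for Plin4, at 138.6. With the 4 arrays numbered 2 left out, Plin4 differed by 0.95 in repeated against saline and by −0.88 in withdrawal against repeated, and met the series criteria in both. The part of tissue makeup in the values on arrays numbered 2 was not tested.

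**Figure D3:**
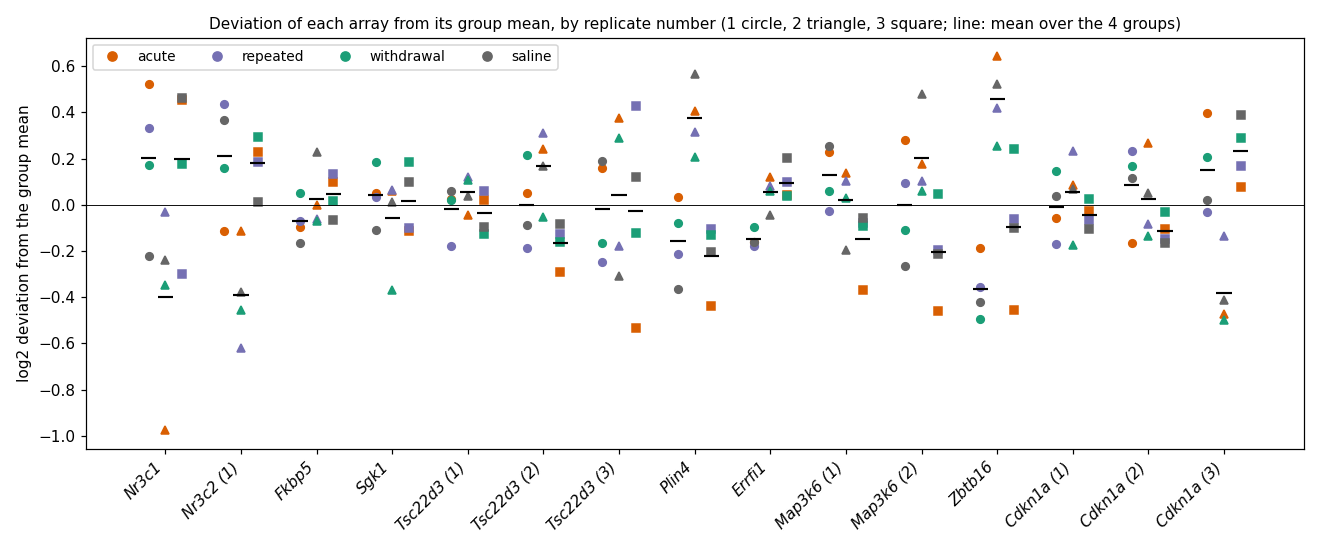
Deviation of each array from its group mean (log2) for the 15 kept probes, split by replicate number (1 circle, 2 triangle, 3 square), coloured by group, with lines at the mean over the 4 groups. All 4 arrays numbered 2 lie above 0 for Plin4 and Zbtb16 and below 0 for Nr3c1, Nr3c2 and the third Cdkn1a probe.

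The punches were striatal by their markers: the 7 medium spiny neuron genes measured were detected on every array. Arrays detected 22189 to 23803 probes and correlated at 0.973 to 0.992. The 8 microglia markers had summed intensities of 3201.8 to 3762.1 in acute, 2984.5 to 3472.8 in repeated, 3065.7 to 3491.1 in withdrawal and 3551.2 to 3750.2 in saline pools, with medians of −0.12, −0.19 and −0.28 log2 in the cocaine groups against saline. Their sums in repeated and in withdrawal pools lay below all saline pools. The 3 measured blood markers of 4 had sums of 5703.3 to 7448.4, 4602.0 to 5858.8, 5008.4 to 7960.8 and 6110.7 to 8703.1 in that order. All repeated pools lay below all saline pools for them. Astrocyte markers, all 8 measured, summed to 29314.8 to 33956.8, 31224.2 to 33384.5, 31087.5 to 33077.6 and 29926.3 to 30880.6 in that order, with repeated and withdrawal above all saline pools. Choroid plexus markers, 4 measured of 6, summed to 1058.0 to 1420.1 in acute, 1093.9 to 2220.6 in repeated, 1129.5 to 2969.5 in withdrawal and 1633.6 to 2074.9 in saline pools, with all acute below all saline pools. Single markers also met the series criteria against saline. Lower were Ttr and Pdgfrb (vessel wall) in acute, Aif1 (microglia), Hba-a1 and Cd52 (blood) in repeated, and Tyrobp (microglia) and Pdgfrb in withdrawal. Slco1a4 (vessel wall) was higher in withdrawal. Over all kept probes 2.77%, 4.59% and 3.94% met the criteria in acute, repeated and withdrawal. These markers are named after their values were seen. The part of these cell types in the results was not tested.

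Variation over the arrays was compared between the brightest probes of the 8 genes detected on all arrays, which gives 28 pairs over 12 arrays. None passed after Benjamini-Hochberg adjustment over the 28, in permutation tests with 100000 resamples. The permutations exchanged values over all 12 arrays without regard to group or replicate number. Their p-values therefore take in differences between groups and numbers and do not measure pool-to-pool variation alone. The r over deviations from the group means was not tested. Tsc22d3 and Plin4 had Pearson r = 0.71 (permutation p = 0.00681, adjusted p = 0.191) and Spearman rho = 0.42 (permutation p = 0.17, adjusted p = 0.85). Without the 2 arrays farthest from the median of Tsc22d3 r was 0.47, and over deviations from the group means it was 0.32. Fkbp5 and Map3k6 had r = −0.60 (permutation p = 0.038, adjusted p = 0.532) and rho = −0.60 (permutation p = 0.0425, adjusted p = 0.595), with r = −0.60 without 2 arrays and −0.72 over deviations. Nr3c1 and Sgk1 had r = 0.51 (permutation p = 0.0938, adjusted p = 0.657) and rho = 0.71 (permutation p = 0.0117, adjusted p = 0.328). For that pair r was 0.82 without the 2 arrays farthest from the median of Nr3c1 and 0.29 over deviations. Each replicate number has too few arrays for a value of its own.

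Among 10397 genes detected on all arrays, those whose log2 values over the 12 arrays were most like Sgk1 were Eml5 (r = 0.94), Mxd1 (0.89) and Cplane1 (0.88). Eml5 read 502.9, 338.0 and 473.8 in withdrawal and 307.3, 304.6 and 344.9 in saline pools, so withdrawal pool 2 was the low one of its group, as for Sgk1. Most like Fkbp5 were Nudt14 (0.81), Ss18l1 (0.80) and Dlx1as (0.79), each highest in saline pool 2. Most like the first Tsc22d3 probe were Gjb6 (0.88), Sall3 (0.86) and Pkd2l1 (0.81). Gjb6, an astrocyte connexin, is also on the list of glucocorticoid-induced genes described next. These are the highest of many correlations and are given as a description.

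Other genes known to be induced by glucocorticoids, 35 measured of 40 listed, had median log2 differences of 0.01, 0.10 and 0.04 in acute, repeated and withdrawal against saline, beside 0.00 over all genes. On the higher side were 19, 24 and 18 of the 35, beside 49.9%, 50.3% and 50.8% of all kept probes, and 0 passed the adjusted threshold in any comparison. Under the series criteria 1 was higher in acute (Irs2), 2 were higher in repeated (Dusp1 and Klf15) and 1 was lower in repeated (Nfkbia). In withdrawal against saline 0 met them, and in withdrawal against repeated 1 was lower (Rasd1). Over all kept probes 2.77%, 4.59% and 3.94% met the criteria in acute, repeated and withdrawal against saline and 1.55% in withdrawal against repeated. Irs2, Klf15 and Rasd1 are named after their values were seen.

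Dusp1, a MAP kinase phosphatase that neuronal activity also induces, read 2126.6, 2206.9 and 2371.1 in repeated and 1550.5, 1958.5 and 1367.2 in saline pools, a difference of 0.47 ± 0.13 (unadjusted p = 0.00539, limma adjusted p = 0.433). Nfkbia, the inhibitor of NF-kappaB, read 249.2, 287.5 and 291.5 in repeated and 357.3, 356.5 and 416.8 in saline pools, a difference of −0.45 ± 0.12 (unadjusted p = 0.00373, limma adjusted p = 0.423). In neither gene did these groups overlap, and the directions were opposite. Per1, the clock gene that is a further direct target, differed from saline by 0.17, 0.22 and 0.07 ± 0.10 in acute, repeated and withdrawal pools and met the criteria in none of them. Per1 is also named after its values were seen.

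The chaperones that hold the receptor, 12 measured of 13, had medians of 0.03, 0.04 and 0.03 in acute, repeated and withdrawal against saline. Hspa1a, the inducible HSP70, read 59.3, 120.8 and 140.2 in acute, 217.9, 310.0 and 208.2 in repeated, 149.8, 170.0 and 190.7 in withdrawal, and 55.4, 89.2 and 36.9 in saline pools. It met the series criteria in all 3 cocaine groups against saline, by 0.82, 2.09 and 1.58 ± 0.36. Dnajb1, its HSP40 partner, met them in repeated (0.53 ± 0.10) and withdrawal (0.42 ± 0.10), and neither gene passed limma's adjusted test (adjusted p = 0.393 for both in repeated). Both are also general heat shock genes. The other 10 met the criteria in none of these comparisons. Thus 1, 2 and 2 of the 12 met them in acute, repeated and withdrawal against saline, beside 2.77%, 4.59% and 3.94% of all kept probes.

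Of the receptor's co-regulators, 7 measured of 11, 1 met the criteria, Ncoa2, a p160 coactivator, at 0.56 ± 0.21 in withdrawal against saline (unadjusted p = 0.0255, limma adjusted p = 0.626). Of 10 genes of local steroid supply and corticotropin signalling 5 were measured and 0 met the criteria. Hsd11b1, which regenerates active corticosterone inside cells, lay at −0.06, −0.08 and −0.21 ± 0.27 in acute, repeated and withdrawal against saline. Crh and Avp, the hypothalamic releasing peptides, had no kept probe.

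Activity-induced genes were measured on the same arrays. Their list was chosen with earlier results of these data known, so it does not give the size of the whole response. The repeated and withdrawal pools had earlier cocaine injections besides the last, so their differences from saline are not those of 1 h alone. The 9 measured of 10 had medians of 0.69, 0.73 and 0.46 in acute, repeated and withdrawal against saline. Of them 9, 7 and 4 met the series criteria, all on the higher side, beside 2.77%, 4.59% and 3.94% of all kept probes. The medians of these 9 genes in withdrawal against repeated and against acute were −0.25 and −0.21. The difference between these genes and the glucocorticoid genes was not tested.

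**Figure D4:**
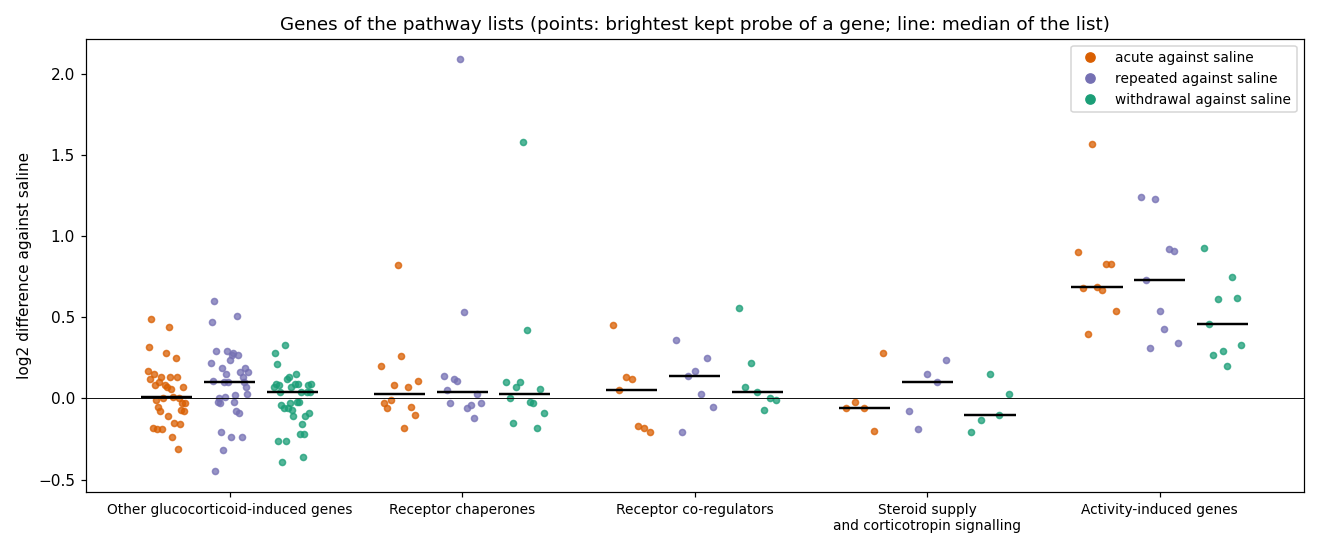
Log2 difference against saline of each measured gene (points, brightest kept probe) in 5 lists, for the acute, repeated and withdrawal groups, with a line at the median of each list. The 9 activity-induced genes lie above 0 in all 3 groups with medians of 0.69, 0.73 and 0.46, while the 35 other glucocorticoid-induced genes have medians of 0.01, 0.10 and 0.04. The highest chaperone point in each group is Hspa1a.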

How the data were processed

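Expression in the nucleus accumbens was measured on 12 bead arrays (Illumina MouseWG-6 v2.0), 3 pools of 4 mice in each of 4 groups, and groups and replicate numbers come from the sample labels. The authors background subtracted and quantile normalized the intensity values in BeadStudio (version not given in the sources used here), per the series text. The deposited intensity tables were both already quantile normalized on a linear scale. The table presented as raw equalled the other plus a constant of 60.7 (largest deviation 0.00586). Per the file headers, the deposited raw table pairs each intensity with a detection p-value. Quantile normalization had removed any difference in total signal between arrays. Because the raw table was already normalized, the values without the constant were used as they stood.

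Values under 10 were set to 10 before taking log2, and 6.34% of kept values lay at the floor. The filter, a detection p below 0.05 on 3 or more of 12 arrays, left 25478 of 45281 probes. A gene stands for its brightest kept probe unless another is named. Group differences come from limma 3.58.1 under R 4.3.3 (lmFit and eBayes, all 12 arrays, no covariate, 8 residual and 2.16 prior degrees of freedom), two-sided, with Benjamini-Hochberg adjustment over the kept probes of a comparison and a threshold of 0.05. The fit was tested on simulated arrays with known changes and with noise independent between arrays. The pass rule covered the mean estimates only, so it says nothing of the p-values or calls on these arrays. Which test the authors used for their criteria is not stated in the labels. Permutation tests used numpy 2.4.6, with ranks from scipy 1.17.1. The number of arrays limits the precision.

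The 10 genes, the lists of other genes and markers and the alternatives were chosen with earlier results of these data known. All probes of the 10 genes are named. From the other lists the 4 members with the smallest F test p may be named, with exceptions marked, and for 3 genes the 3 most similar patterns.

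Groups share replicate numbers. Correlations of deviations from the group means between same-numbered arrays were 0.133 to 0.468 in repeated against saline, 0.166 to 0.386 in withdrawal against saline and 0.246 to 0.439 in repeated against acute, all over 0.1, so values with the replicate block stand beside results of these comparisons where the call changed. In the other 3 comparisons the lowest was 0.065, 0.036 and 0.025, and the block is given only among the alternatives. The labels do not say what the number marks. Promoter windows and gene symbols are from RefSeq (GRCm38.p6).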

Additional observations from a re-analysis of the deposited data

How the results depend on the processing

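Over 23 to 25 alternatives for each probe in the 6 comparisons, 2160 differences of the 15 probes were recomputed: 1997 kept direction and side of the series criteria, 96 turned sign with no call in either setting, 20 lost the criteria, 47 met them anew, and 0 turned direction in a call. Losses not given in the report were those of the second Map3k6 probe in repeated against saline with an offset (0.33) and without arrays numbered 1 (0.40), and of the second Tsc22d3 probe. That probe was at −0.36 without background subtraction and −0.37 without arrays numbered 2 in withdrawal against acute, and at −0.31, −0.33 (offset) and −0.27 (without arrays numbered 2) in withdrawal against repeated. The cause was not tested where fewer arrays or smaller folds do not show it. Settings with arrays numbered 1 or 2 left out were chosen after seeing the data.

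The number of probes that met the series criteria, in acute, repeated and withdrawal against saline, then repeated and withdrawal against acute, then withdrawal against repeated, was 705, 1169, 1005, 809, 864 and 395. It was 50, 130, 86, 84, 84 and 14 without background subtraction and 87, 187, 142, 125, 129 and 17 with an offset of 50 in place of the floor, since both shrink the folds of dim probes. At 1.5-fold it was 424, 557, 481, 445, 475 and 223. With probes detected on all arrays it was 421 in acute against saline, 536 and 552 in repeated and withdrawal against acute and 211 in withdrawal against repeated. Leaving out 1 array gave 682 to 1131, 1063 to 1455, 840 to 1535, 700 to 1726, 604 to 1834 and 352 to 567 in that order, the highest in the comparisons with acute being without acute replicate 3. Without saline replicate 3 there were 1108 in acute and 1535 in withdrawal against saline. Withdrawal against repeated gave 906 with array weights, 660 without arrays numbered 1 and 649 without those numbered 2.

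The replicate block gave 1352 probes in withdrawal against acute and 632 in withdrawal against repeated. With it Zbtb16 met the criteria in both (−0.66, unadjusted p = 0.00771, and −0.64, unadjusted p = 0.00931). Plin4 in withdrawal against repeated stayed at −0.94 (unadjusted p = 0.000233). No other call of the 15 probes changed with the block beyond those given in the report.

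Past the adjusted threshold limma had 1 probe in repeated against acute. It had 0 there without background subtraction, with the offset, with no filter, with probes detected on all arrays, with the replicate block, without arrays numbered 1 or 2 and in a fit of the 2 groups compared, and 0 to 4 leaving out 1 array. Elsewhere it had 0, except 1 in acute and in repeated against saline without background subtraction, 1 in acute against saline with the offset, 1 in withdrawal against saline, against acute and against repeated with no filter, 2 in withdrawal against repeated with array weights, and 0 to 1 leaving out 1 array in every comparison but withdrawal against repeated. Dim probes, with both receptors among them, limit what these arrays can show.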
